A study of Saccharomyces cerevisiae with 12 samples.

Results

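The nuclear tRNA genes of Saccharomyces cerevisiae were followed through a shut-off of histone H3. Members were the 275 of 7127 listed features whose identifier has the systematic tRNA form (a lower-case t, the amino acid letter, the anticodon in brackets and a chromosome letter), with the mitochondrial tRNA genes left out. Of these, 273 name an amino acid and 2, tX(XXX)D and tX(XXX)L, do not. The rule reads identifiers only. RNA-seq counts came from 4 groups of 3 biological replicates. H3i YPD cells carried a knockout of HHT1 and had their only other H3 gene, HHT2, under the GAL1 promoter, and had been moved from galactose medium (YPGal) to glucose medium (YPD), where that promoter is off. H3i YPGal cells had the same genotype and stayed in galactose. WT YPD cells had the wild-type genotype and the same change of medium, and WT YPGal cells were wild type in galactose. H3i is 1 strain, DGS200.1, built from YEF473A. How long cells spent in YPD is not stated in the labels.

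Nuclear tRNA genes are transcribed by RNA polymerase III (Pol III). TFIIIC binds the A and B boxes inside the gene, TFIIIB is placed upstream of it, and transcription ends at a run of T on the non-template strand. The primary transcript is trimmed at both ends, spliced where it has an intron, modified and exported, and defective precursors are polyadenylated by the TRAMP complex and degraded by the nuclear exosome. Actively transcribed tRNA genes in this yeast are largely free of nucleosomes. The libraries were made with mRNA kits, which select poly(A) RNA, so mature tRNA, which has no poly(A) tail, is largely outside what they measure. A count in a tRNA gene is therefore a read from RNA that passed that selection, and not a measure of the tRNA pool.

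Many of these genes have the same sequence, which bears on what a read can be assigned to. RefSeq R64, the assembly also named sacCer3, holds 275 nuclear tRNA loci with 70 different gene sequences, and 242 loci share their sequence with another locus. By amino acid, anticodon and chromosome, 149 identifiers matched 1 locus each. Another 123 matched sets with as many loci as identifiers, in which the final numbers could not be assigned, and 3 matched none. Genes are 71 to 133 bases long and 60 loci have an intron. The 6 genes below are shown because the results turn on them, and the aspartate sequence shared by 15 loci is shown because tD(GUC)N is the 1 aspartate gene that differs from it. Letters run from 5′ to 3′ on the gene's own strand, from RefSeq R64, introns included, and capitals mark the match to the B box motif.
tY(GUA)D, chrIV:946312-946400, + strand: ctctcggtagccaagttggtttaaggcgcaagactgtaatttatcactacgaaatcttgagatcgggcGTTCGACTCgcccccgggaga
tF(GAA)G, chrVII:440716-440807, - strand: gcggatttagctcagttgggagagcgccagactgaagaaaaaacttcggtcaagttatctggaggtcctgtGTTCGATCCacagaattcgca
tV(UAC)D, chrIV:488797-488870, - strand: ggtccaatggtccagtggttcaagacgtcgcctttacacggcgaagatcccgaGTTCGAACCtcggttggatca
tT(AGU)C, chrIII:295484-295556, + strand: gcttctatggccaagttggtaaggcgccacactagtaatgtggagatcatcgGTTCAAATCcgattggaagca
tK(CUU)J, chrX:414966-415038, + strand: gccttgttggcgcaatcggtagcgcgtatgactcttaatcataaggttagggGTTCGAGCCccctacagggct
tD(GUC)N, chrXIV:519099-519169, - strand: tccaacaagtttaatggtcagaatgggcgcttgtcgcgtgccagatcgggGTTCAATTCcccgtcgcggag
aspartate gene at 15 loci: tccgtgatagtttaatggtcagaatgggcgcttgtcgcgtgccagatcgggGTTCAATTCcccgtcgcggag

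The B box was searched as GNTCNANNC on the gene strand and was found in all 275 loci (100%). The first 73 bases of protein-coding genes held the same letters in 297 of 6002 cases (4.95%). A run of at least 4 T began within the first 40 bases downstream of 271 of the 275 loci. The 40 bases that follow the genes read as follows, with that run in capitals.
after tY(GUA)D, chrIV:946401-946440, + strand: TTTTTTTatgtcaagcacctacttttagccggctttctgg
after tF(GAA)G, chrVII:440676-440715, - strand: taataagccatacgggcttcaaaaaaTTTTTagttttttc
after tT(AGU)C, chrIII:295557-295596, + strand: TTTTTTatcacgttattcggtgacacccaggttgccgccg
The run starts at the first base after tY(GUA)D and tT(AGU)C, and at base 27 after tF(GAA)G. Among the genes with 1 matched locus, such a run followed all 30 that the main test below called higher in H3i YPD and 117 of the 119 others.

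The strain labels were checked on the H3 genes. HHT1 stood at 0 to 2.66 CPM (counts per 1000000 counts in genes) in H3i YPD and 0.0997 to 3.34 CPM in H3i YPGal, while all WT libraries held 634 to 1330 CPM. HHT2 averaged 22.2 ± 7.80 CPM in H3i YPD and 3440 ± 1060 CPM in H3i YPGal (SD, n = 3 each). Libraries held 2176277 to 2525223 gene counts (replicate 1), 40950610 to 52278567 (replicate 2) or 8649749 to 11628815 (replicate 3), and 1 count is worth 0.396 to 0.46 CPM in replicate 1. Replicate 2 stood apart. Of the features at 50 CPM or more in replicates 1 and 3 of a group, 21.8% in H3i YPD, 46.8% in H3i YPGal, 41.4% in WT YPD and 45.9% in WT YPGal were more than 10-fold lower in replicate 2. The fitted comparisons therefore use replicates 1 and 3. WT replicate 3 stood apart from WT replicates 1 and 2 in a few genes used as strain markers or set by mating type: LEU2 and URA3 had no count in them, and MF(ALPHA)1 was at 2330 CPM in YPD and 2460 CPM in YPGal, against 0 to 0.792 CPM in replicates 1 and 2. The fits against WT were also run without those libraries.

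In H3i cells, counts in nuclear tRNA genes were higher after the move to YPD than in YPGal. The summed level of all members was 470.1, 431.4 and 681.6 CPM in the 3 H3i YPD libraries, against 47.59, 46.3 and 152.3 CPM in the H3i YPGal libraries. The lowest H3i YPD library was above the highest H3i YPGal library, and the mean was 528 ± 135 CPM in H3i YPD and 82.1 ± 60.8 CPM in H3i YPGal (SD, n = 3 each). Replicate by replicate, H3i YPD was 9.88, 9.32 and 4.48 times H3i YPGal. Per kb of tRNA gene (21.9 kb in all) the levels were 21.4, 19.7 and 31.1 CPM in H3i YPD, against 2.17, 2.11 and 6.94 CPM in H3i YPGal. More genes were also read: 161, 230 and 248 of the 275 had a count in H3i YPD, against 50, 150 and 184 in H3i YPGal. The gene with the most counts held 11.3%, 24.9% and 6.84% of the tRNA counts in H3i YPD, against 12.3%, 7.52% and 10.3% in H3i YPGal. Without the 3 genes of highest mean level the ratios were 9.34, 6.18 and 4.52.

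In the wild-type strain the summed level was 67.03, 72.36 and 218.3 CPM in YPD, against 40, 71.82 and 105.9 CPM in YPGal. YPD was 1.68, 1.01 and 2.06 times YPGal, and the groups overlap. The log2 ratio of the group means was 2.68 in H3i, with an SD of 0.64 over the replicates, and 0.72 in WT, with an SD of 0.53 (n = 3 each), and the difference between the strains' ratios was not tested. In YPD, H3i was 7.01, 5.96 and 3.12 times WT and the groups did not overlap. In YPGal, where H3i cells express H3, H3i was 1.19, 0.645 and 1.44 times WT, a log2 ratio of 0.18 with an SD of 0.61. No p-value is given for these sums. They are shares of the RNA counted, so more tRNA gene transcript and less of other RNA per cell cannot be told apart.

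**Figure D1:**
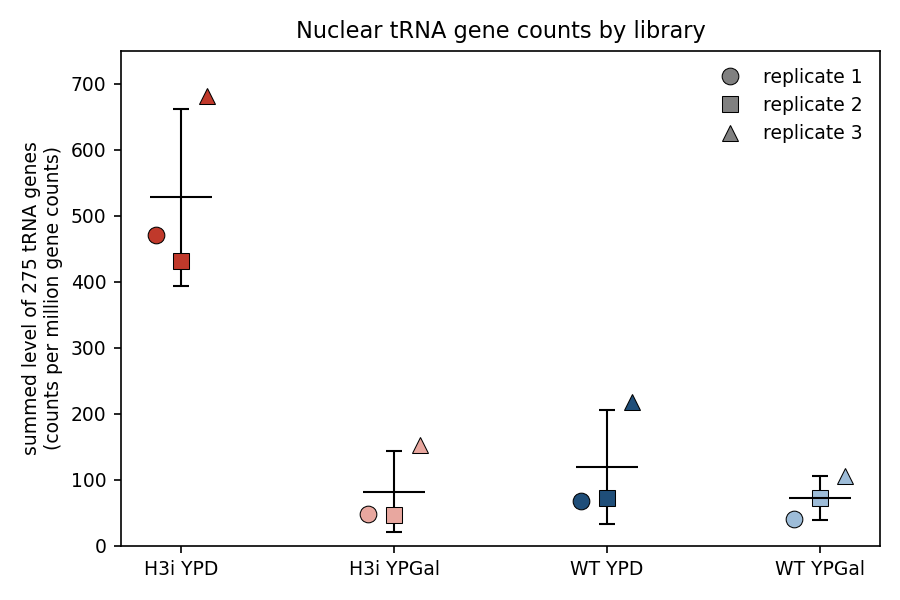
Summed level of the 275 nuclear tRNA genes in each library, in CPM, for H3i YPD, H3i YPGal, WT YPD and WT YPGal. Symbols mark the replicates, horizontal lines the group means and bars 1 SD (n = 3). The H3i YPD libraries lie between 431.4 and 681.6 CPM, above all other libraries, and replicate 3 is the highest of its group each time.

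Other shares of the reads moved with the same groups. Reads aligned to several places, which are counted for no gene, made up 25.4%, 38.5% and 22.0% of aligned reads in H3i YPD, against 15.0%, 17.2% and 11.7% in H3i YPGal, with 13.8% to 18.6% over the WT libraries. Per gene count they were 2.0, 3.05 and 2.22 times as frequent in H3i YPD as in H3i YPGal. Reads in no feature were 2.11, 1.28 and 1.72 times as frequent in H3i YPD. Reads of identical tRNA genes can fall among those aligned to several places, and the part of these shares in the tRNA counts was not tested. Other small RNA genes did not follow the tRNA genes in every replicate: the summed level of the snR genes, which encode small nuclear and nucleolar RNAs, was 2.09, 2.5 and 0.863 times as high in H3i YPD as in H3i YPGal. The 24 mitochondrial tRNA genes had 1 count in the 12 libraries together.

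All 20 amino acids had a higher mean summed level in H3i YPD than in H3i YPGal. In 13 of them every H3i YPD library was above every H3i YPGal library, and in 7 (Cys, Phe, Gly, Asn, Pro, Gln and Ser) the groups overlapped. Of the 6880 single features with a count, 21.1% were above in this way, but a sum over several genes is not like a single feature. Without replicate 2, a setting chosen after seeing the data, 18 did not overlap. That setting compares fewer libraries, and no share over all features was taken for it. Tyrosine genes stood highest, at 60.2, 114.0 and 49.6 CPM in H3i YPD, against 0.417, 1.25 and 1.30 CPM in H3i YPGal, and they made up 14.2% of the mean tRNA level in H3i YPD and 1.20% in H3i YPGal. Glutamate genes were at 36.3, 47.2 and 64.8 CPM in H3i YPD, against 0.835, 1.74 and 7.97 CPM in H3i YPGal. Both sets of 3 libraries were well apart, with ratios of means of 75.6 for Tyr and 14.1 for Glu. In each, most of the H3i YPD level came from 1 gene, tY(GUA)D and tE(UUC)G1, both described below. At the other end, the 21 glycine genes were at 6.43, 9.60 and 20.6 CPM in H3i YPD, against 3.34, 3.90 and 10.5 CPM in H3i YPGal, where the groups overlap and the ratio of means was 2.07. The remaining 17 ratios of means lay between 2.70 for Asn and 10.4 for Thr. Lysine genes had the smallest SD relative to the mean in H3i YPD, at 44.6, 35.6 and 47.8 CPM, against 7.10, 5.85 and 9.97 CPM in H3i YPGal. Set against WT YPD, 13 amino acids were above in every H3i YPD library, as were 27.1% of single features. Of the 20, 1, proline, separated WT YPD from WT YPGal.

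**Figure D2:**
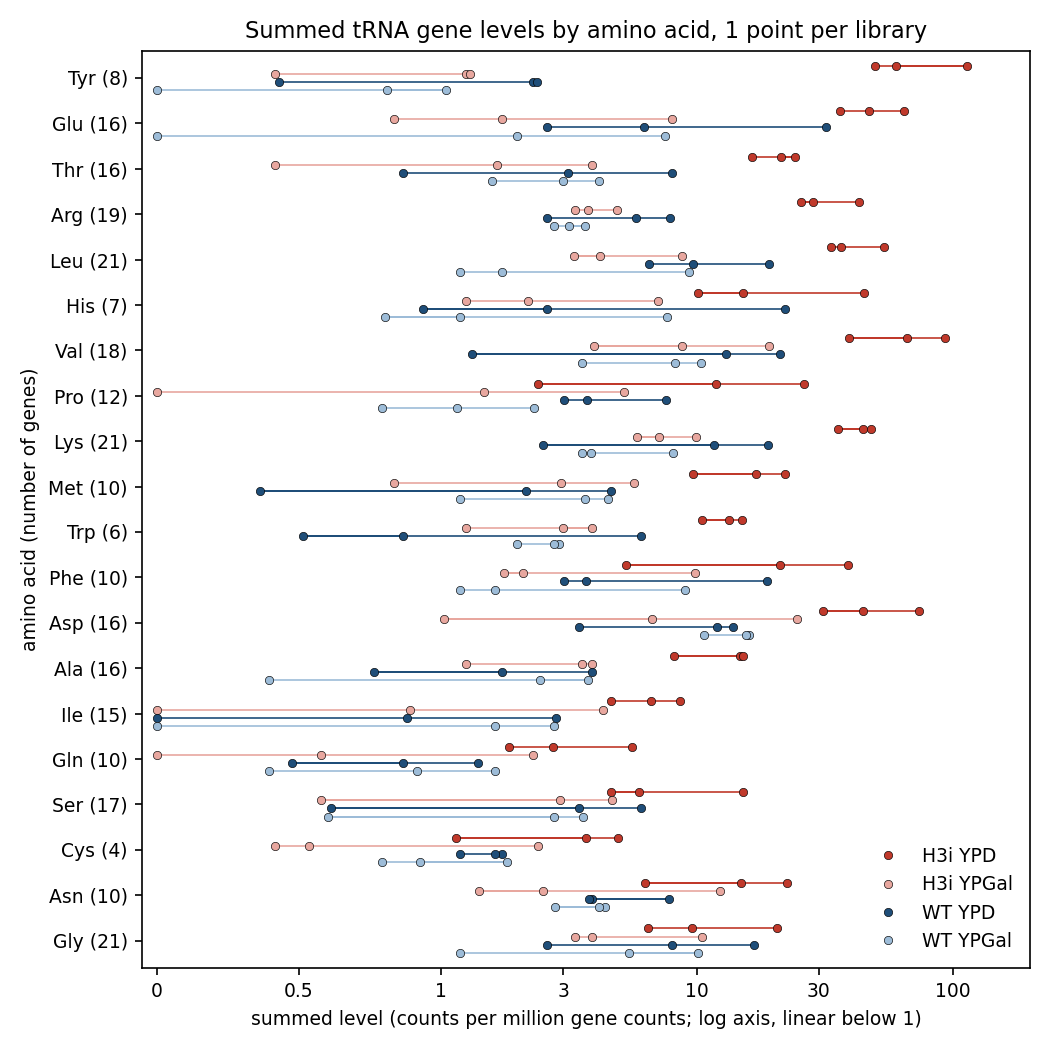
Summed level of the tRNA genes of each amino acid in CPM, 1 point per library, joined by group, on an axis that is logarithmic above 1 and linear below. Amino acids run from the highest ratio of means of H3i YPD over H3i YPGal at the top (Tyr, 75.6) to the lowest at the bottom (Gly, 2.07). In 13 rows the H3i YPD points do not overlap the H3i YPGal points.

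Gene by gene, edgeR's quasi-likelihood test on the 8 libraries of replicates 1 and 3 could be run for 260 members, and 15 had no count there. With Benjamini-Hochberg adjustment over 6856 features, 53 members (20.4%) rose in H3i YPD relative to H3i YPGal and 0 fell. The share of all features called higher was 20.0%, so the number that rose is near the background. The share of all features called lower was 21.0%. The median fitted log2 fold change was 2.01 over the 260 members and 0.06 over all features. With genes that had no count in 1 of the groups set at the bound that 3 counts over that group allow, and 51 members with 3 counts or fewer in both groups left out, the median over members was 1.67, against 0.05 over all features treated alike. Counting libraries instead of fitting, 78 members were higher in all 3 H3i YPD libraries than in any H3i YPGal library. This is 28.4% of all members and 29.8% of the 262 with a count in any library, against 21.1% of the 6880 features with a count, and 1 member was lower in all, against 6.60% of features.

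The share called depended on the level. Of the 164 members under 0.5 CPM on average over the 8 libraries, 7.32% were called higher, against 7.44% of the 215 other features at that level. Between 0.5 and 1 CPM the shares were 30.0% of 40 members and 29.8% of 121 other features. The mean level includes the H3i YPD libraries, so a feature can reach a class above 1 CPM through its H3i YPD counts. A high share called higher in those classes is therefore partly built in. In those classes, in this comparison, the shares of members were larger. They were 45.8% of 24 members and 30.3% of 165 other features between 1 and 2 CPM, 53.8% of 26 and 33.3% of 267 between 2 and 5 CPM, and 66.7% of 6 and 31.6% of 455 between 5 and 20 CPM. In these 5 classes few of the other features were called lower either (0 to 3.96%), and the 5373 other features at 20 CPM or more, where 26.4% were called lower, hold no tRNA gene. Against WT YPD the shares called higher in H3i YPD were closer, at 37.5% of members and 31.5% of other features between 1 and 2 CPM, 34.6% and 34.5% between 2 and 5 CPM, and 33.3% and 37.1% between 5 and 20 CPM. Whether members differ from other features at equal level was not tested.

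**Figure D3:**
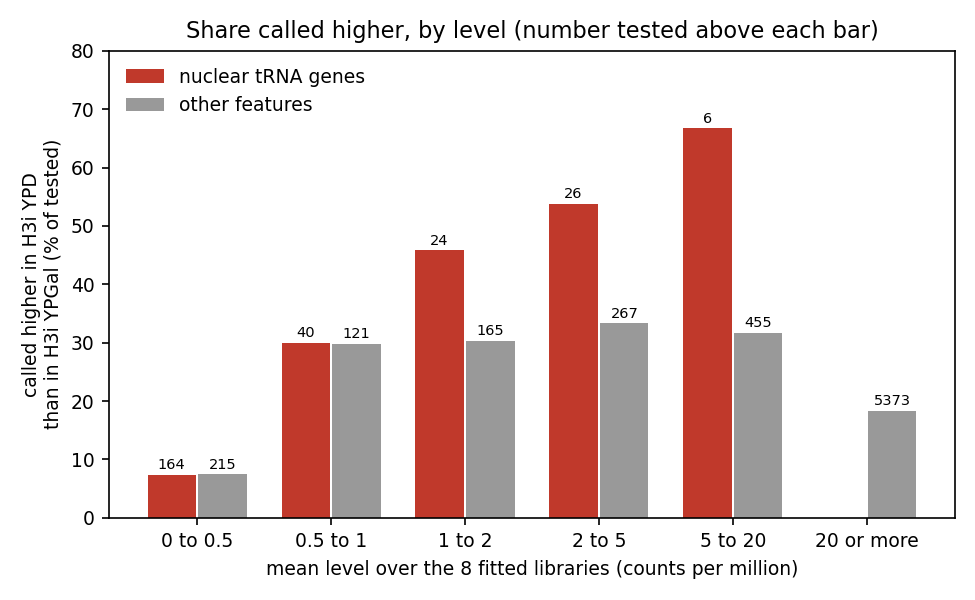
Share of tested features called higher in H3i YPD than in H3i YPGal (adjusted p under 0.05), for nuclear tRNA genes and for all other features, in classes of mean level over the 8 fitted libraries. Numbers above the bars are features tested. The bars are equal within a percentage point below 1 CPM and the tRNA bars are higher from 1 to 20 CPM. The mean level includes the H3i YPD libraries, so the classes are not independent of the calls.

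The number of calls depended on single libraries and on the model. The 53 of 260 became 25 with DESeq2, which gave 90 members an adjusted p, and 15 without the replicate block. With all 12 libraries it became 14 of 262 with a replicate block and 0 with a term for the extraction kit. In the same order, the shares of all features called higher were 21.4%, 7.95%, 2.73% and 0%. With the kit term no feature was called higher, so the 0 says nothing about the members. Leaving out any 1 of the fitted H3i libraries left fewer calls, and fewest without H3i YPGal replicate 3. The share of all features called higher fell in these fits too. Each has 1 library in a group, so their numbers are not given here. The genes called under every one of the 8 omissions were tF(GAA)G and tY(GUA)D. Scaling by gene totals alone gave 65 higher and 0 lower members, beside 30.5% of all features higher and 12.7% lower. That scaling moved the median of all features to 0.48 from 0.06 and the share of all calls that are higher to 70.6% from 48.8%.

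tY(GUA)D, 1 of 8 tyrosine genes, had the highest mean level of all members. It was at 53.3, 107.0 and 41.3 CPM in H3i YPD, against 0.417, 0.892 and 0.399 CPM in H3i YPGal. The groups are far apart in every replicate, from 116, 4396 and 480 counts in H3i YPD, against 1, 40 and 4 counts in H3i YPGal. The fitted log2 fold change was 6.37 ± 0.68 (SE; edgeR adjusted p = 0.0013). WT libraries held 0 to 0.648 CPM of it, and against WT YPD the change was 5.65 ± 0.65 (edgeR adjusted p = 0.000665). The other 7 tyrosine genes were lower, at 0 to 3.22 CPM over all libraries, and 1 of them, tY(GUA)M1, was also called. The gene has an intron of 14 bases and the same sequence as 2 other loci, and lies 1159 bases from SNU56 on its upstream side and 406 bases from AMD2 downstream on the same strand. AMD2, which encodes a putative amidase, rose as well, at 194 ± 46.5 CPM in H3i YPD and 46.4 ± 2.99 CPM in H3i YPGal (SD, n = 3 each; log2 change 1.45 ± 0.27, edgeR adjusted p = 0.00453).

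tF(GAA)G, 1 of 10 phenylalanine genes, had 29, 31 and 199 counts in H3i YPD, against 0, 1 and 1 counts in H3i YPGal. Over replicates 1 and 3 this is 228 counts against 1, a ratio of 205 with a 95% exact conditional interval of 36.5 to 8140 that covers counting error only. The edgeR adjusted p was 0.00234. WT had 0, 0 and 3 counts in YPD and 0, 4 and 3 in YPGal, and the response of H3i to the change of medium exceeded that of WT (difference of log2 changes 7.13 ± 1.84, edgeR adjusted p = 0.0261). That difference passed in 4 of 15 alternatives, and its edgeR adjusted p was 1 without both WT libraries of replicate 3 and 0.0818 with no replicate block. Neighbouring genes went the other way: SCW11, a cell wall glucanase gene 473 bases upstream, had a log2 change of -1.90 ± 0.42 (edgeR adjusted p = 0.00903), and CGR1, a gene for ribosomal RNA processing 290 bases downstream on the opposite strand, one of -0.85 ± 0.24 (edgeR adjusted p = 0.0242).

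Aspartate genes of identical sequence had unequal counts. Reads aligned to several places are counted for no gene, so reads lying wholly within a shared sequence are largely left out of these counts. 15 of the 16 share 1 sequence, yet their counts ranged widely. tD(GUC)J2 had 7, 536 and 230 counts in H3i YPD, against 0, 2 and 0 in H3i YPGal, and 0 in all 6 WT libraries. Over replicates 1 and 3 it was at least 71.1-fold higher in H3i YPD than in H3i YPGal, with H3i YPGal set at 3 counts over those libraries (edgeR adjusted p = 0.00781). tD(GUC)K, tD(GUC)L1 and tD(GUC)L2 had at most 7 counts in any library. tD(GUC)N, whose sequence differs, was the member with the most counts in 5 of the 12 libraries, none of them H3i YPD. It was at 7.81, 9.50 and 5.25 CPM in H3i YPD and at 5.84, 0.112 and 15.7 CPM in H3i YPGal. The groups overlap (log2 change -1.12 ± 0.68, edgeR adjusted p = 0.22). In WT it was at 0.432, 0.421 and 2.16 CPM in YPD, against 8.32, 15.4 and 7.28 CPM in YPGal, groups that do not overlap, with a log2 change of -2.29 ± 0.76 (edgeR adjusted p = 0.19).

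**Figure D4:**
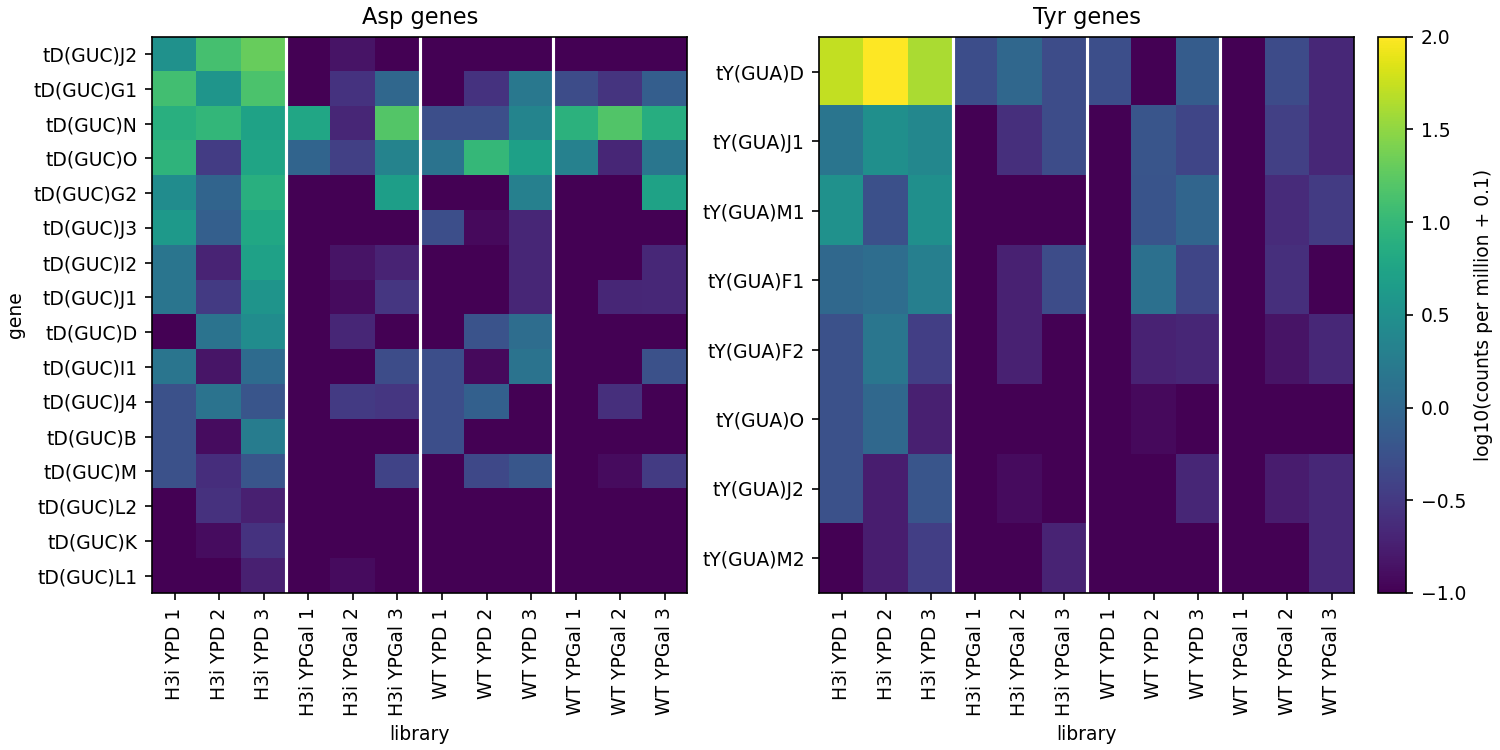
Level of each aspartate gene (left) and tyrosine gene (right) in each of the 12 libraries, as log10 of CPM plus 0.1, with genes ordered by their mean in H3i YPD. tY(GUA)D reaches 107.0 CPM in H3i YPD and at most 0.892 CPM elsewhere, while tD(GUC)N reaches 15.7 CPM in H3i YPGal.

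Among the other members of highest mean level, tE(UUC)G1 (Glu) was at 26.7, 41.5 and 46.6 CPM in H3i YPD, against 0.417, 1.14 and 6.08 CPM in H3i YPGal (log2 change 3.76 ± 0.92, edgeR adjusted p = 0.013), and WT YPD held 1.73, 4.74 and 23.5 CPM, below all H3i YPD libraries (edgeR adjusted p = 0.119). tL(CAA)L (Leu) was at 9.65, 12.7 and 10.5 CPM in H3i YPD, against 0.835, 1.49 and 1.10 CPM in H3i YPGal (log2 change 3.07 ± 0.73, edgeR adjusted p = 0.0119). Both groups of tL(CAA)L values are tight, but WT YPD, at 3.89, 8.30 and 10.4 CPM, reached the H3i YPD level. tV(UAC)D (Val) was at 11.9 and 29.1 CPM in H3i YPD replicates 1 and 3, against 0.417 and 1.40 CPM in H3i YPGal (log2 change 4.25 ± 0.80, edgeR adjusted p = 0.00475), and had no count in any replicate 2 library. The gene 134 bases downstream on the same strand, ATG31 of autophagy, rose by a log2 change of 2.27 ± 0.30 (edgeR adjusted p = 0.00174), while SES1, 637 bases upstream, fell by 1.76 ± 0.31 (edgeR adjusted p = 0.00367). tK(UUU)D (Lys) rose by 3.54 ± 0.71 (edgeR adjusted p = 0.00603). tK(UUU)O, tH(GUG)E1, tD(GUC)O and tV(AAC)O did not pass the test, with log2 changes of 2.36, 1.97, 1.76 and 0.66 and edgeR adjusted p between 0.0909 and 0.433.

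Apart from tF(GAA)G, the 8 members with the largest fitted changes among those called with at least 10 counts had no count in H3i YPGal replicates 1 and 3, so lower bounds are given with H3i YPGal set at 3 counts over those libraries. tM(CAU)O1 (Met) was at least 27-fold higher in H3i YPD, from 18, 129 and 72 counts, against 0, 16 and 0 in H3i YPGal. tT(AGU)C (Thr) had 11, 270 and 57 counts in H3i YPD and none in any H3i YPGal library, a bound of at least 20.4-fold higher. tK(CUU)J (Lys) had 11, 336 and 45 counts in H3i YPD, and again none in H3i YPGal, at least 16.8-fold higher. In these genes replicate 2, which the test did not use, has the same direction. tD(GUC)J3, tY(GUA)M1 and tW(CCA)M (Trp) had bounds of at least 23.7-fold, 12.6-fold and 10.2-fold higher. The edgeR adjusted p of these 6 genes lay between 0.00688 and 0.0201. Near tT(AGU)C the glycerophosphoinositol transporter gene GIT1, 1492 bases downstream on the opposite strand, rose by a log2 change of 4.87 ± 0.42 (edgeR adjusted p = 0.000674). The nearer HMRA1, 1162 bases upstream on the same strand, had a log2 change of -1.45 ± 1.85 (edgeR adjusted p = 0.559). RPC17, 195 bases upstream of tK(CUU)J on the opposite strand, had one of -1.39 ± 0.30 (edgeR adjusted p = 0.00763).

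Against WT in the same medium, 39 members (15.0%) were higher in H3i YPD than in WT YPD and 3 (1.15%) were lower, while 24.1% of all features were higher and 22.4% lower (edgeR, 8 libraries, adjusted p under 0.05). Both shares of members called by edgeR are below the background. By library, 74 members were higher in all H3i YPD than in all WT YPD libraries. This is 26.9% of all members and 28.2% of the 262 with a count, against 27.1% of the 6880 features with a count, so the number is near the background, and 0 were lower in all, against 6.85% of features. These counts rest partly on single libraries. Fewer members were called without both WT libraries of replicate 3, and fewest without WT YPD replicate 3. The number was also lower without WT YPD replicate 1 and without any 1 of the fitted H3i libraries. The share of all features called higher fell in these fits too. Each has 1 library in a group, so their numbers are not given here. Scaling by gene totals gave 53 calls, 52 higher and 1 lower, beside 40.8% of all features higher and 11.5% lower. That scaling moved the share of all calls that are higher to 77.9% from 51.9%. tF(GAA)G, tV(AAC)M1 and tY(GUA)D were called under every omission. tV(AAC)M1, named here after its values were seen, had 25, 3 and 127 counts in H3i YPD, against 0, 4 and 1 in WT YPD.

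The 8 members with the largest fitted changes against WT YPD among those called with at least 10 counts had no count in WT YPD replicates 1 and 3. Bounds with those libraries set at 3 counts in all were at least 66.2-fold higher for tD(GUC)J2, 25.1-fold for tM(CAU)O1, 19.6-fold for tL(CAA)C, 13.4-fold for tL(CAA)G2, 12.9-fold for tC(GCA)B, 7.82-fold for both tL(UAG)L2 and tG(UCC)O, and 7.54-fold for tT(UGU)G1. Their edgeR adjusted p lay between 0.00721 and 0.0414. tL(CAA)C lies 351 bases upstream of LEU2 on the same strand, a gene with no count in the WT libraries of replicate 3. The tRNA gene had 3, 91 and 67 counts in H3i YPD, against 0 in all 3 WT YPD libraries. Over replicates 1 and 3 it had 70 counts in H3i YPD and 24 in H3i YPGal, a ratio of only 2.63. H3i cells thus also had counts in it where H3 was expressed, and its bound against WT YPD is not a response to the medium alone. The 3 lower members had few counts. tK(UUU)P had 1, 3 and 8 counts in H3i YPD, against 11, 1 and 27 in WT YPD (log2 change -2.96 ± 0.99, edgeR adjusted p = 0.0382). tA(AGC)L had 0, 45 and 1 counts in H3i YPD, against 2, 1 and 11 in WT YPD, so replicate 2 went the other way. tL(UAA)B2 had none in H3i YPD, against 1, 0 and 11 in WT YPD.

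Between YPD and YPGal in WT, 0 members passed the edgeR test and 19 had an unadjusted p under 0.05, where 0.788% of all features were called. DESeq2 called 0 of the 2 members it gave an adjusted p. Between H3i YPGal and WT YPGal, 0 members passed the edgeR test and 4 had an unadjusted p under 0.05, where 0.0438% of all features were called. DESeq2 gave no member an adjusted p there, so its count of 0 says nothing. The difference between the H3i and WT responses to the medium passed the edgeR test for 2 members upward (0.769%, against 11.7% of all features) and 1 downward (0.385%, against 13.6%). Scaling by gene totals moved the share of all calls of this kind that are upward to 76.4% from 46.2%. The upward members were tF(GAA)G, above, and tM(CAU)O1, and the downward one was tL(UAA)B2. tM(CAU)O1 and tL(UAA)B2 lost the call in all 8 omissions of 1 library and tF(GAA)G in 7 of them.

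Called members were spread over copy numbers and positions. Of the tested members whose gene sequence occurs at 1 locus 20.8% were called higher in H3i YPD than in H3i YPGal, at 2 to 4 loci 25.9%, at 5 to 9 loci 27% and at 10 or more 16.9%. Anticodon families with an intron had 15 of 57 members called (26.3%), and the other families 38 of 203 (18.7%). Among genes with 1 matched locus, 18.9% of 90 with an LTR or Ty element within 500 bases were called, against 25.5% of 51 without one. Where the nearest gene was itself called higher, 6 of 22 tRNA genes were called (27.3%), where it was called lower 7 of 37 (18.9%), and where it was not called 16 of 70 (22.9%). For 103 tRNA genes the nearest gene was tested and the tRNA gene had at least 10 counts over the 8 fitted libraries, H3i YPD included. Across these, the log2 change of the gene and of its neighbour had a Pearson r of 0.036, with both values from the same libraries. Beside these groups, 20.4% of all tested members and 20.0% of all features were called higher. The share called depended on the level, and these groups were not matched for level. The median in H3i YPD was 1.07 CPM in the families with an intron and 0.507 CPM in the others. The shares by group are descriptions and were not tested against each other.

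Genes of the tRNA pathway, taken from fixed lists, moved in several directions in H3i YPD relative to H3i YPGal (edgeR adjusted p under 0.05, beside 20.0% of all features higher and 21.0% lower). Of 17 subunits of RNA polymerase III 0 were called higher and 9 fell, with a median log2 change of -1.19. The largest were RPO26 (-1.86 ± 0.26, edgeR adjusted p = 0.00204), RPB5 (-1.76 ± 0.26, edgeR adjusted p = 0.00233) and RPC10 (-1.64 ± 0.25, edgeR adjusted p = 0.00237), shared by all nuclear RNA polymerases, and RPC19 (-1.74 ± 0.30, edgeR adjusted p = 0.00349), shared with polymerase I. Scaled by gene totals, 3 subunits were higher and 9 lower. That scaling called 30.5% of all features higher and 12.7% lower, the shares to set beside each list count scaled by gene totals in this comparison. Of 11 transcription factors and regulators 4 rose: TFC4 and TFC1 of TFIIIC (1.11 and 0.87), BDP1 of TFIIIB (0.78) and PZF1, which is TFIIIA (0.73). The TATA-binding protein SPT15 fell by 1.02. Scaled by gene totals, 7 of the 11 were higher and 0 lower. With 12 libraries and a replicate block none was called in either direction, beside 2.73% of all features higher and 4.55% lower. MAF1, the repressor of polymerase III, had a log2 change of -0.23 (edgeR adjusted p = 0.45).

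Of the 21 cytosolic aminoacyl-tRNA synthetases, which charge tRNA, 0 were called higher and 11 fell (median -0.86). GRS1, SES1, MES1 and DPS1, for glycine, serine, methionine and aspartate, led with log2 changes of -1.83, -1.76, -1.52 and -1.42 and edgeR adjusted p from 0.00296 to 0.00624. Relative to WT YPD, 20 of the 21 were lower in H3i YPD, and so were 12 of the 17 polymerase subunits, beside 22.4% of all features. Scaled by gene totals, 16 synthetases and 9 subunits were lower than in WT YPD, beside 11.5% of all features. With 12 libraries and a replicate block 8 synthetases and 3 subunits were, beside 5.36% of all features. Scaled by gene totals, 0 synthetases were higher and 7 lower than in H3i YPGal.

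Maturation and modification enzymes were mixed. Of 21 maturation genes 4 fell (RNase P subunits POP6 and POP8, the La protein LHP1, which binds new polymerase III transcripts, and the splicing endonuclease subunit SEN15, by 1.18 to 1.67), but scaled by gene totals 4 were higher and 2 lower. Of 38 modification genes 3 rose, among them the methyltransferase gene TRM3 (1.15 ± 0.25, edgeR adjusted p = 0.00829), and 8 fell, led by THG1 (-1.39), TRM1 (-1.30), DUS4 (-1.28) and NCL1 (-1.04), while scaling by gene totals gave 7 higher and 3 lower. Of 15 nuclear surveillance genes 4 rose: the exonuclease RAT1 (1.27), NRD1 (1.23) and SEN1 (0.91), which end noncoding transcripts, and the TRAMP poly(A) polymerase TRF5 (1.02 ± 0.26, edgeR adjusted p = 0.0151). The exosome cofactor LRP1 and the RAT1 partner RAI1 fell by 1.08 and 0.90, and scaled by gene totals 4 were higher and 0 lower. The counts scaled by gene totals stand beside 30.5% of all features higher and 12.7% lower. TRF5 averaged 214 ± 22.4 CPM in H3i YPD, 80.7 ± 25.3 CPM in H3i YPGal, 89.0 ± 30.1 CPM in WT YPD and 83.3 ± 36.7 CPM in WT YPGal (SD, n = 3 each).

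Other transcripts of polymerase III did not pass the test. RPR1, the RNA of RNase P, had 42, 43 and 308 counts in H3i YPD, against 8, 34 and 133 in H3i YPGal (log2 change 1.55, edgeR adjusted p = 0.197). SCR1, the signal recognition particle RNA, had 47, 2135 and 285 counts in H3i YPD, against 24, 254 and 125 in H3i YPGal (log2 change 0.66, edgeR adjusted p = 0.574). By CPM each was higher in H3i YPD than in H3i YPGal in all 3 replicates. Of 79 tested snR genes 0 were called higher and 3 fell, namely snR33, snR82 and snR44, by 2.1 to 3.29, and DESeq2 called 3 higher and 3 lower. In WT between media and between strains in YPGal, no gene of these lists passed the edgeR test. DESeq2 called 4.45% of all features higher in WT YPD than in WT YPGal. Of these lists it called 11 of 21 synthetases, 6 of 38 modification genes and 3 of 17 polymerase subunits higher. It also called 2 of 79 snR genes, 1 of 21 maturation genes and 1 of 15 surveillance genes.

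**Figure D5:**
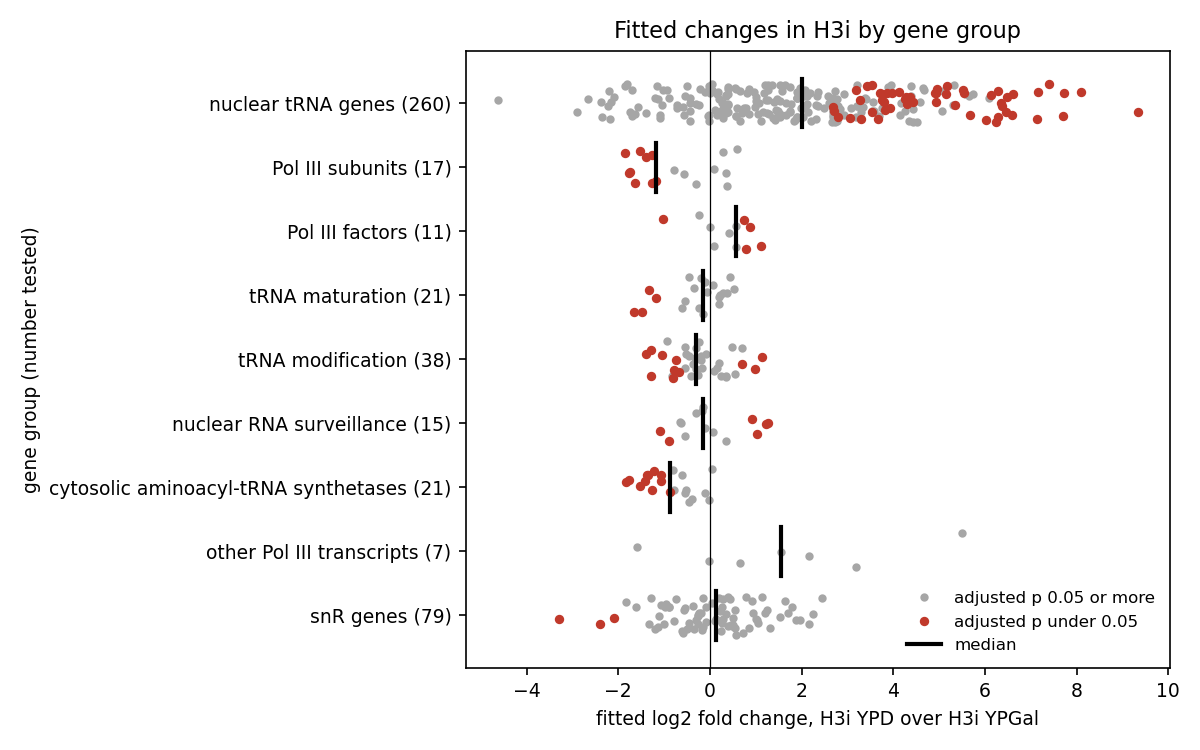
Fitted log2 fold change of H3i YPD over H3i YPGal for each tested nuclear tRNA gene and each tested gene of the fixed lists, with medians as vertical bars and calls at adjusted p under 0.05 in red. Medians are 2.01 for nuclear tRNA genes, -1.19 for Pol III subunits and -0.86 for synthetases. Values of tRNA genes above 6 are mostly fits against groups with few or no counts.

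By likeness of pattern, the features outside the group whose log2 CPM followed the summed tRNA level most closely over the 12 libraries were TRF5 (Pearson r = 0.967), YMR135W-A (0.965), PFS1 (0.962), YGL138C (0.961) and YOL134C (0.958), of 5878 features compared. These were the features with at least 10 counts in every H3i YPD library, the group in which the tRNA level is high, and all but TRF5 averaged under 1 CPM in each of the other groups. The H3i YPD libraries stand apart in all of them, and the points share libraries and depth, so these values only describe the pattern.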

How the data were processed

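RNA-seq count tables of 12 yeast libraries were used, 1 per library. Per the labels' protocols, replicates 1 and 2 were extracted with a MagMax96 kit and replicate 3 with Trizol and glass beads, followed by TruSeq Stranded mRNA kits. The submitters' processing notes name FastQC, HISAT2, SAMtools, Picard and DESeq2 and the build sacCer3. No label or header states the counting tool, its strand setting or any version. The deposited values are raw whole-number counts per feature, not normalized by the authors. Each file closes with 5 entries that name no gene (22.0% to 74.5% of all counts), which stayed out of totals and tests.

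Reads that align to several places are one of those entries, so counts of tRNA genes with identical copies are uncertain, and reads from a tRNA gene and from an overlapping or antisense transcript cannot be told apart here. Levels (CPM) are counts per 1000000 counts in genes. Replicates are labelled biological. Differences were tested with edgeR 4.0.16 (quasi-likelihood, TMM factors, 8 libraries of replicates 1 and 3, all 4 groups, a replicate term that equals the kit term, features with at least 1 count, Benjamini-Hochberg over all 6856 features, threshold 0.05; 3 residual degrees of freedom, biological coefficient of variation 0.274). The SE of a fitted log2 change is its absolute value divided by the square root of the quasi-likelihood F statistic. DESeq2 1.42.0 was an alternative. Numbers pair the libraries: in all 18 pairs of equal number the deviations from group means were correlated (r from 0.359 to 0.791), and 8 of 12 libraries correlated best with their own number. Named members are the 10 of highest mean level and, per comparison, up to 8 called in each direction with the largest change among those with at least 10 counts; named list genes are up to 4 called per list and direction. Locus matches and sequences come from RefSeq R64. Intervals and floors of 3 counts cover counting error only. The members, lists and the choice of replicates were made with earlier results of these data known.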

Additional observations from a re-analysis of the deposited data

Results flagged for a closer look

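The response of H3i to the change of medium differed from that of WT (interaction term, edgeR, adjusted p under 0.05) for 3 nuclear tRNA genes, in log2 units of H3i response minus WT response: tF(GAA)G at 7.13, tM(CAU)O1 at 11.44 and tL(UAA)B2 at -8.04. The values of tM(CAU)O1 and tL(UAA)B2 are fits against groups with no count, so their size is not a measured fold. With 1 library left out, the calls of tM(CAU)O1 and tL(UAA)B2 were lost in all 8 cases and that of tF(GAA)G in 7 of 8.

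Of the pathway genes named for H3i YPD against H3i YPGal, the same test differed for the polymerase subunits RPO26 (-2.59), RPB5 (-2.33), RPC19 (-2.23) and RPC10 (-2.01), for TFC4 (1.27) and SPT15 (-1.61), for POP6 (-1.45) and LHP1 (-2.37), for the modification enzymes THG1 (-1.65), TRM1 (-1.89), DUS4 (-1.73) and NCL1 (-1.68), for LRP1 (-1.61) and RAI1 (-1.34), for the synthetases GRS1 (-2.29), SES1 (-2.40), MES1 (-2.59) and DPS1 (-1.70), and for snR33 (-2.92), snR82 (-2.57) and snR44 (-3.37). In these the H3i response was the lower of the 2 except for TFC4. They were chosen among genes already called in H3i YPD against H3i YPGal, a change that is part of this difference. Their direction was therefore partly set by that choice. Of all features, 11.7% were called upward and 13.6% downward, and 21.4% and 6.61% when scaled by gene totals. The numbers of upward and downward genes over the whole lists depend on the scaling and the model. Scaled by gene totals, 5 factors were upward and 1 downward (1 and 1 with TMM), surveillance genes 3 and 0 (0 and 3), modification genes 1 and 1 (0 and 10), maturation genes 1 and 1 (0 and 2), polymerase subunits 0 and 8 (0 and 10) and synthetases 0 and 8 (0 and 14). With no replicate block 0 genes of these lists were called, and with 12 libraries and a replicate block 2 subunits and 5 synthetases were. Of all features, 0.511% were upward and 0.0292% downward with no replicate block, and 0.581% and 2.27% with the 12-library block.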

How the results depend on the processing

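The log2 ratios of the summed tRNA level moved by less than 1 SD over replicates under every alternative run (all counts as denominator, TMM-scaled totals, each replicate left out, without the 3 highest genes, only genes that overlap no other gene). They were 2.35 to 3.26 for H3i YPD over H3i YPGal and 1.68 to 2.69 for H3i YPD over WT YPD, but changed sign for H3i YPGal over WT YPGal (-0.25 to 0.45). The share of all features called also changed with the setting. Higher in H3i YPD than in H3i YPGal were 20.0% in the main fit and 21.4% with filterByExpr and with DESeq2. The share was 7.95% with no replicate block, 2.73% with the 12-library replicate block and 0% with the kit term. Higher than in WT YPD were 24.1% in the main fit, 24.4% with DESeq2, 11.4% with no replicate block, 5.09% with the 12-library replicate block and 0% with the kit term. Numbers of called members moved more than the log2 ratios, and the cause was not tested. For H3i YPD against H3i YPGal (53) they were 35 with filterByExpr, which tests fewer genes, 25 with DESeq2 (90 members with an adjusted p), 0 with 12 libraries and a kit term, 14 with 12 libraries and a replicate block, 15 with no replicate block, and 2 to 50 with 1 library left out. For H3i YPD against WT YPD (42) they were 12 with DESeq2 (141 with an adjusted p), 0 with the kit term, 10 with the 12-library replicate block, 11 with no replicate block, 7 with only the groups compared, 10 without both WT libraries of replicate 3, and 4 to 36 with 1 library left out. For the difference of responses (3) they were 0 with the kit term, with either of those changes to the replicate block and without both WT libraries of replicate 3, and 0 to 1 with 1 library left out. For WT YPD against WT YPGal (0) there was 1 with only the groups compared. Over the 30 called results of named members, 471 refits kept the call in 281, lost it in 189 and reversed 1: tA(AGC)L against WT YPD, at 0.48 with 12 libraries and a replicate block. Without replicate 2, a setting chosen after seeing the data, amino acids separated in every library numbered 4 instead of 1 for WT YPD over WT YPGal and 1 instead of 0 for H3i YPGal over WT YPGal. No share over all features was taken for that setting. Depth limits the members most in replicate 1, where 3 counts are 1.19 to 1.38 CPM and 45 to 63 members had a count outside H3i YPD.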
